A study of Mus musculus with 12 samples.

Results

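The genes described here are the mouse collagen chains outside the tectorial membrane set, that is, every gene in the count files whose symbol is Col, a number, the letter a and a number, except Col9a1, Col11a1 and Col11a2. The symbols give 41 members of 55348 listed genes, and the 3 genes set apart bring the collagen total to 44. Their RNA was read in 4 genotypes with 3 libraries each, from the organ of Corti of mice at postnatal day 21, the strip of hair cells and supporting cells that detects sound. The groups were wild-type mice, Clrn1-/- mice, Clrn2-/- mice and Clrn1-/-Clrn2-/- double mutants, and the labels name no treatment. Clrn1 and Clrn2 encode clarin-1 and clarin-2, tetraspanin-like membrane proteins of hair cells. The Clrn1-/- allele was a constitutive deletion made by germline Cre recombination with PGK-cre, the Clrn2-/- allele was the clarinet nonsense mutation, and both therefore affected every tissue of the animal. The double mutants came from a cross of the single mutant lines, whereas wild-type mice came from separate breedings, so that breeding and genotype cannot be told apart in a comparison with wild-type. Stria vascularis and modiolus had been dissected away, and the labels do not say whether the 3 libraries of a genotype came from separate animals, so the p-values measure the spread between these libraries, which may be technical.

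Collagens are secreted proteins built from 3 chains wound into a triple helix, and their types differ in the structure they form. Fibrillar collagens assemble into cross-striated fibrils, type IV collagens form the sheet of basement membranes, type VI collagen forms beaded filaments around cells, and the fibril-associated collagens with interrupted triple helices (FACIT) lie on fibril surfaces. Chains of type IV collagen are needed for hearing and kidney filtration, and type II and type IX collagens are also known components of the tectorial membrane, although Col2a1, Col9a2 and Col9a3 were kept among the members by their symbols.

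Libraries held 30008679 to 41049302 reads assigned to genes. Levels are given as counts per 1000000 reads (CPM), scaled by the trimmed mean of M-values (TMM). Clrn1 was at 25.0, 23.8 and 28.6 CPM in the wild-type libraries and at 3.04, 2.69 and 2.75 CPM in Clrn1-/-, and Clrn2 was at 3.03, 1.89 and 3.24 CPM in wild-type and 1.26, 1.38 and 1.04 CPM in Clrn2-/-. Each targeted gene was lower in the libraries labelled as its mutant than in wild-type. In the double mutants Clrn1 was at 1.77, 2.44 and 2.71 CPM and Clrn2 at 1.18, 0.921 and 1.13 CPM, but Clrn2 was no higher in Clrn1-/- (0.854, 0.854 and 1.04 CPM) than in Clrn2-/-, so that its level does not tell these groups apart. Hair cell markers were present, with Otof at 88.0 to 110.1 CPM in wild-type, but the tissue also held nerve, since 10 Schwann cell and myelin genes summed to 21505 to 22689.6 CPM in wild-type and 10 neuronal genes to 11841 to 12984 CPM. These are bulk samples, in which fewer cells of a type and less RNA per cell cannot be told apart.

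In wild-type, 36 of the 41 members averaged above 1 CPM and 9 above 100 CPM. Divided by exon length, so that genes can be compared, Col1a2 was the most abundant member at 68.4 ± 3.64 CPM per kilobase (mean ± SD, n = 3), followed by Col9a2 at 62.8 ± 2.13, Col2a1 at 58.4 ± 4.87 and Col9a3 at 51.6 ± 3.27 CPM per kilobase. Neighbours among these 4 differed by less than the sum of their SDs and were not separated, whereas Col1a1 followed at a distance with 28.7 ± 10.7 CPM per kilobase and a wide spread. Col4a1 led the type IV chains with 23.8 ± 0.069, Col15a1 the basement membrane zone chains with 10.5 ± 0.853, Col6a1 the type VI chains with 11.8 ± 4.77 and Col8a1 the short-chain collagens with 9.22 ± 2.95 CPM per kilobase. Col23a1 led the transmembrane collagens with 8.39 ± 1.29 and Col28a1 the remaining pair with 2.28 ± 0.395 CPM per kilobase. Col6a4, Col10a1 and Col17a1 had at most 4, 3 and 10 reads in any of the 12 libraries and did not pass the filter on low counts, which left 38 members tested. The RNA of the members was mostly that of type I, type II and type IX chains, while Col10a1, a marker of hypertrophic cartilage, and Col17a1, a hemidesmosome collagen of surface epithelia, were near the limit of detection.

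A gene was called when edgeR's quasi-likelihood test gave a p, adjusted by Benjamini and Hochberg over all 19052 genes tested, no higher than 0.05 and the change was at least 1.5-fold. In Clrn1-/- against wild-type, 10 of the 38 tested members were called higher (Col2a1, Col3a1, Col4a6, Col6a3, Col6a5, Col6a6, Col13a1, Col16a1, Col19a1 and Col25a1), where 3.52% of all genes tested were. Col6a5 is counted here, but it passed the filter on low counts only through libraries that lack Clrn1, so its call is no support. No member was called lower by edgeR, limma-voom or DESeq2, with 2 at an unadjusted edgeR p under 0.05, where 3.7% of all genes were called. In Clrn1-/-Clrn2-/- against wild-type, 10 members were again called higher (Col2a1, Col3a1, Col4a3, Col4a5, Col4a6, Col5a1, Col6a6, Col13a1, Col18a1 and Col28a1) against 5.88% of all genes. None was called lower by any of the 3 tools, with 1 at an unadjusted edgeR p under 0.05, against 4.02% of all genes. In Clrn2-/- no member was called higher by these tools, with 14 at an unadjusted edgeR p under 0.05, and only Col24a1 was called lower, against 1.24% and 1.42% of all genes. These comparisons share the wild-type libraries and are therefore given side by side.

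Most of the other members also lay above wild-type, by less than 1.5-fold. Without the fold minimum, 22 members passed the limit on the adjusted p with a higher level in Clrn1-/- (13.6% of all genes), 7 in Clrn2-/- (7.14%) and 23 in the double mutants (19.1%), and in each comparison 1 member, Col24a1, was lower (13.3, 7.07 and 17.9% of all genes). The median log2 fold change of the tested members was 0.25 in Clrn1-/-, 0.17 in Clrn2-/- and 0.31 in the double mutants, whereas the median of all genes was within 0.01 of 0 in each. The change was positive in 30, 29 and 32 of the 38 members, respectively, and in 49.4, 49.3 and 50.1% of all genes. All 3 mutant libraries lay above all 3 wild-type libraries for 23 members in Clrn1-/- (20.5% of all genes), 13 in Clrn2-/- (14.6%) and 24 in the double mutants (25%).

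**Figure D1:**
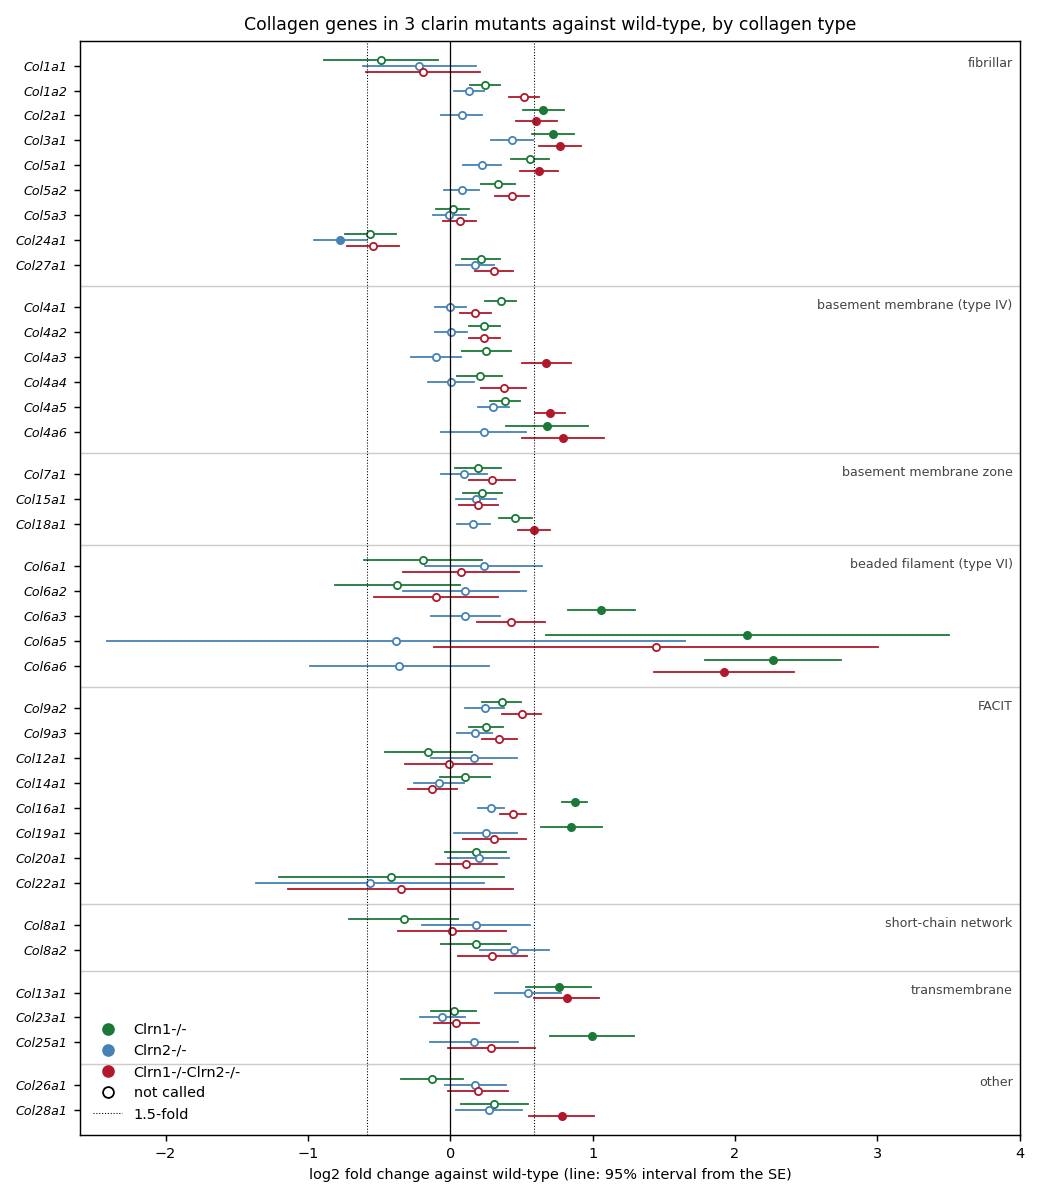
Log2 fold change of the 38 tested collagen genes against wild-type in Clrn1-/- (green), Clrn2-/- (blue) and Clrn1-/-Clrn2-/- (red), grouped by collagen type, with 3 libraries per genotype. Filled circles are called genes, open circles are not, lines are 95% intervals from the SE and dotted lines mark 1.5-fold. Most circles lie right of 0, and Col6a6 and Col6a5 lie farthest right in Clrn1-/-.

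Summed over its members, the fibrillar type stood at 2205, 2196 and 1940.3 CPM in wild-type, 2875, 2551 and 2687 in Clrn1-/-, 2187, 2350.1 and 2339 in Clrn2-/- and 2919, 3079 and 2862 CPM in the double mutants. The Clrn1-/- and double mutant libraries lay above every wild-type and Clrn2-/- library. The type IV sum was 367 to 385 CPM in wild-type, 439.8 to 502 in Clrn1-/-, 378 to 393 in Clrn2-/- and 443 to 474 CPM in the double mutants, with the same separation. The FACIT sum was 575 to 599 CPM in wild-type and higher in every mutant library, at 689.8 to 746 in Clrn1-/-, 644 to 665 in Clrn2-/- and 695 to 750.4 CPM in the double mutants. The type VI sum, in contrast, ran from 68.7 to 155 CPM within wild-type alone and covered the values of all 9 mutant libraries (102 to 113, 109 to 145 and 105 to 146 CPM). The short-chain sum also overlapped, at 56.9 to 101 CPM in wild-type and 65.7 to 84.3, 79.9 to 116 and 80.5 to 103 CPM in Clrn1-/-, Clrn2-/- and the double mutants.

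**Figure D2:**
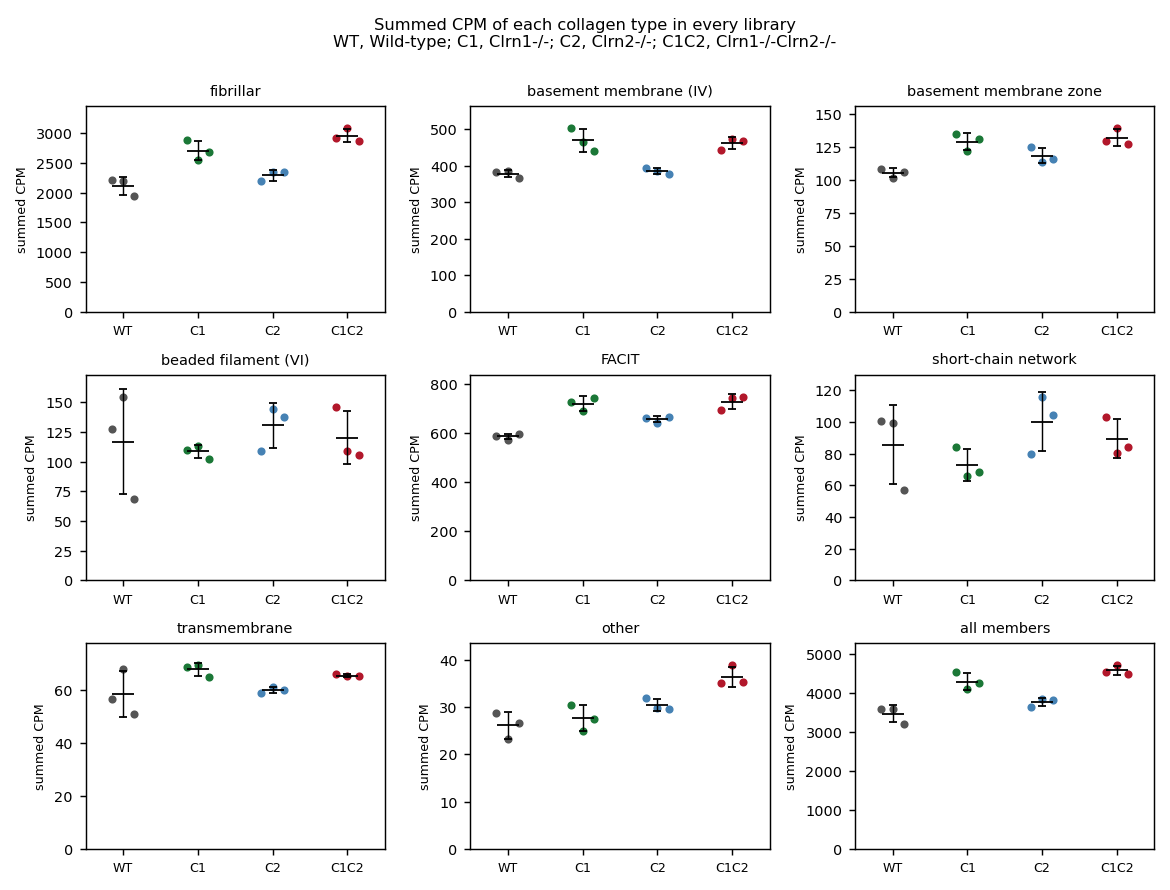
Summed CPM of each collagen type, and of all 41 members, in every library (circles), with the mean (bar) and SD (whiskers) of the 3 libraries of a genotype. Fibrillar, type IV and FACIT sums are higher in Clrn1-/- and in the double mutants than in wild-type, whereas the type VI and short-chain sums overlap in all genotypes.

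Of the 9 fibrillar members, 2 were called higher in Clrn1-/- (Col2a1 and Col3a1), 3 in the double mutants (Col2a1, Col3a1 and Col5a1) and 1 lower in Clrn2-/- (Col24a1), and their median log2 fold change was 0.24, 0.43 and 0.08 in Clrn1-/-, the double mutants and Clrn2-/-. Col2a1 (chr15:97975602-98004695, minus strand, GRCm38), the chain of the main cartilage collagen, was at 590.4, 525 and 504 CPM in wild-type, 927, 768 and 851 in Clrn1-/-, 543, 581 and 588 in Clrn2-/- and 773, 878 and 808 CPM in the double mutants. Its Clrn1-/- and double mutant libraries did not overlap with the other 6, with log2 fold changes against wild-type of 0.65 (SE 0.07, adjusted p = 1.04e-05) and 0.60 (SE 0.07, adjusted p = 8.69e-06), and of 0.08 (SE 0.07, adjusted p = 0.525) in Clrn2-/-. The double mutant call was lost without wild-type replicate 2 or 3 or double mutant replicate 2, with values no lower than 0.54. Col3a1 (chr1:45311538-45349706, plus strand), which forms fibrils with type I collagen in vessels and loose connective tissue, was at 175, 171 and 146 CPM in wild-type, 285, 256 and 269.8 in Clrn1-/-, 199, 238 and 227 in Clrn2-/- and 288, 288 and 262 CPM in the double mutants. All 9 mutant libraries lay above all wild-type libraries, and the log2 fold changes were 0.72 (SE 0.07, adjusted p = 4.38e-06) in Clrn1-/-, 0.43 (SE 0.07, adjusted p = 0.00103) in Clrn2-/-, which is under 1.5-fold, and 0.77 (SE 0.07, adjusted p = 7.93e-07) in the double mutants. Col27a1 (chr4:63214004-63334991, plus strand), a fibrillar chain of cartilage, was at 207, 197 and 223 CPM in wild-type, 239, 242 and 248 in Clrn1-/-, 213, 232 and 262 in Clrn2-/- and 241, 276 and 259 CPM in the double mutants. It was called in no comparison, with 0.22 (SE 0.07, adjusted p = 0.0282), 0.17 (SE 0.07, adjusted p = 0.107) and 0.31 (SE 0.07, adjusted p = 0.00219) against wild-type, and only the Clrn1-/- and double mutant libraries lay wholly above wild-type. Col5a1 (chr2:27886425-28039514, plus strand), a chain of the type V collagen that starts fibril assembly, was at 59.3, 58.3 and 54.9 CPM in wild-type, 94.6, 84.0 and 75.8 in Clrn1-/-, 71.4, 65.9 and 63.9 in Clrn2-/- and 89.9, 90.7 and 84.7 CPM in the double mutants. It too was higher in all 9 mutant libraries, by 0.56 (SE 0.07, adjusted p = 2.09e-05), 0.22 (SE 0.07, adjusted p = 0.0388) and 0.62 (SE 0.07, adjusted p = 2.78e-06) on the log2 scale in the order above, and only the last was past 1.5-fold.

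Its partner chain Col5a2 changed by 0.33 (SE 0.06, adjusted p = 0.000816) in Clrn1-/- and 0.43 (SE 0.06, adjusted p = 3.81e-05) in the double mutants, and Col5a3, a minor type V chain, by 0.02 (SE 0.06, adjusted p = 0.853) and 0.07 (SE 0.06, adjusted p = 0.403). Col1a2 (chr6:4504814-4541544, plus strand), the most abundant member per length, was at 870.2, 881 and 798 CPM in wild-type, 1066, 962 and 992 in Clrn1-/-, 915, 955 and 927 in Clrn2-/- and 1196, 1269 and 1189.7 CPM in the double mutants. The libraries did not overlap between genotypes, in the order wild-type, Clrn2-/-, Clrn1-/- and double mutants, and no change reached 1.5-fold, with a log2 fold change of 0.24 (SE 0.05, adjusted p = 0.00342) in Clrn1-/- and 0.52 (SE 0.05, adjusted p = 1.8e-06) in the double mutants. Col24a1 (chr3:145292472-145552011, plus strand), a fibrillar chain known from developing bone and cornea, was the only member called lower against wild-type. It was at 15.2, 15.5 and 13.1 CPM in wild-type, 9.74, 10.3 and 9.53 in Clrn1-/-, 7.42, 8.51 and 9.64 in Clrn2-/- and 10.0, 10.3 and 9.69 CPM in the double mutants, so that every mutant library was below every wild-type library. The log2 fold change was -0.77 (SE 0.09, adjusted p = 6.46e-05) in Clrn2-/- and, short of 1.5-fold (0.585 on the log2 scale), -0.56 (SE 0.09, adjusted p = 0.000338) in Clrn1-/- and -0.54 (SE 0.09, adjusted p = 0.000236) in the double mutants. The annotated gene D530037P16Rik overlaps Col24a1 on the same strand, and reads in a shared stretch cannot be assigned to either. Of the other called members, Col3a1, Col4a3, Col4a5, Col4a6, Col6a3, Col19a1 and Col25a1 also overlap annotated genes on the same strand.

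**Figure D3:**
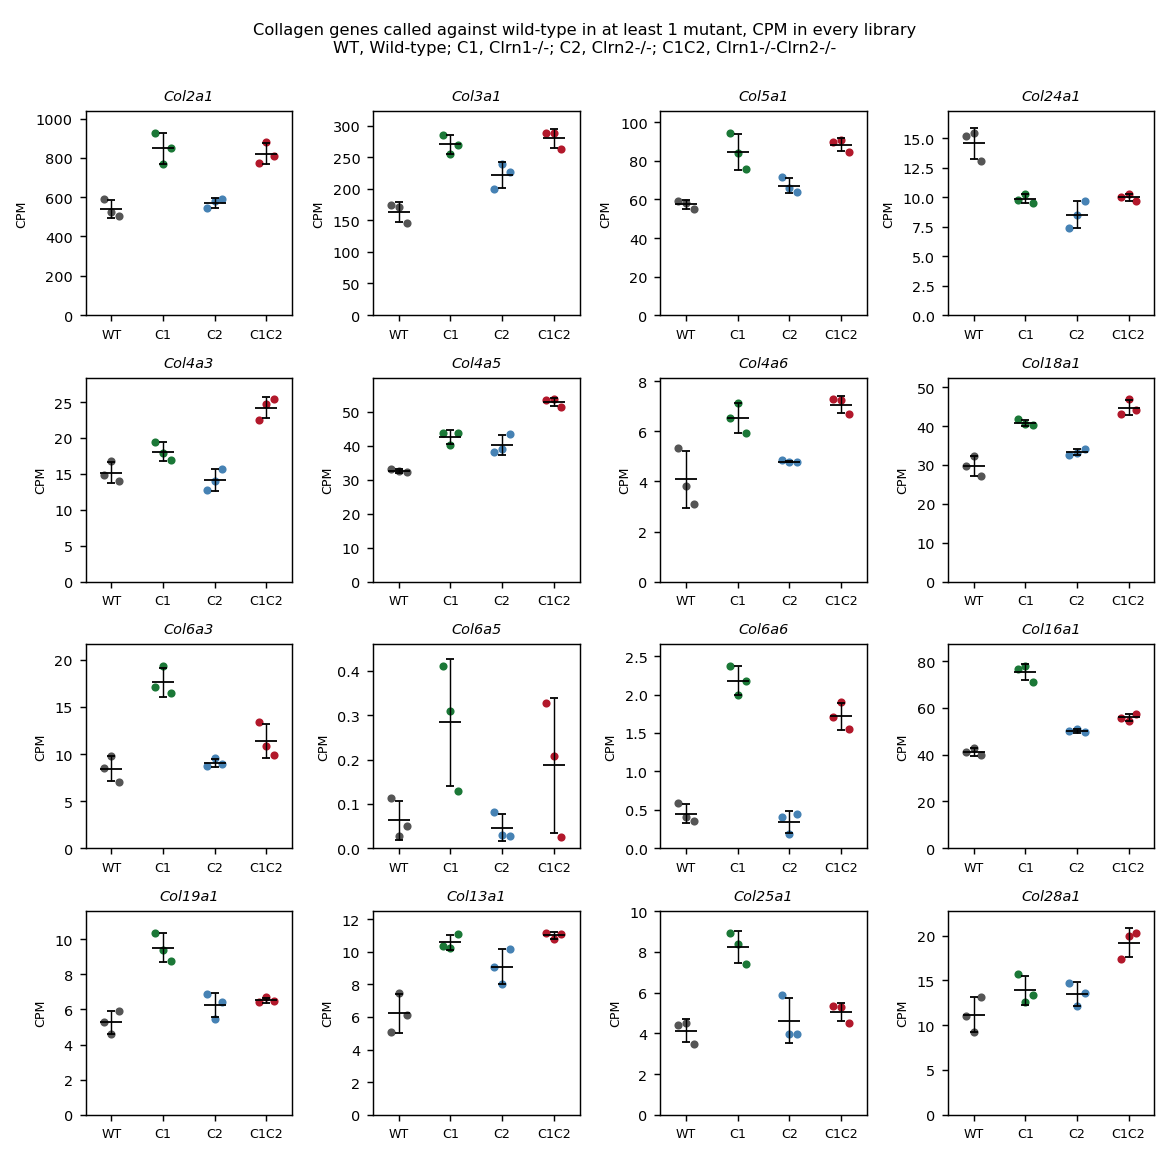
CPM of the 16 collagen genes called against wild-type in at least 1 mutant, in each library (circles), with the mean (bar) and SD (whiskers) of the 3 libraries of a genotype; each axis starts at 0. Col16a1, Col6a3, Col19a1 and Col25a1 are highest in Clrn1-/-, Col4a3 and Col28a1 are highest in the double mutants, and Col24a1 is lower in all mutants.

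The 6 type IV genes lie in head-to-head pairs in the genome, and the annotated starts are 21 (Col4a1 and Col4a2, which overlap), 72 (Col4a3 and Col4a4) and 1309 bases apart (Col4a5 and Col4a6). Col4a1 and Col4a2 encode the chains found in nearly all basement membranes, Col4a3, Col4a4 and Col4a5 those of the kidney filter and the cochlea, whose loss causes Alport syndrome with deafness, and Col4a6 a chain that pairs with Col4a5 in some epithelia and smooth muscle. All 6 had positive changes in Clrn1-/- and in the double mutants, where 5 and 6 of them passed the limit on the adjusted p, and the medians were 0.30 and 0.52 on the log2 scale. In Clrn2-/- the median was 0.01. The windows from 250 bases before to 50 after the start of Col4a4, Col4a5, Col4a6 and, for the type VI genes, Col6a6 are printed because they belong to the type IV pairs with called changes and to the type VI gene with the largest change (RefSeq, GRCm38.p6, strand of the gene). Capitals mark CCAAT or its complement ATTGG and GGGCGG or its complement CCGCCC, searched on both strands with no overlap between these motifs, as was TATAAA, which none of the 4 windows holds.
Col4a4, chr1:82586800-82587099, minus strand, a window that also covers the start of Col4a3: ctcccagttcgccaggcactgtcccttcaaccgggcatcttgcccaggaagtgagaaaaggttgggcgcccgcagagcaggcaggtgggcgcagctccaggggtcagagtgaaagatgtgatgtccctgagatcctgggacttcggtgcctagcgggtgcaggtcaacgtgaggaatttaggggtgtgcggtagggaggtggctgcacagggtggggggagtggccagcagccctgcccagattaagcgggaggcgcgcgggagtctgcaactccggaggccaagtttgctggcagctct
Col4a5, chrX:141475169-141475468, plus strand: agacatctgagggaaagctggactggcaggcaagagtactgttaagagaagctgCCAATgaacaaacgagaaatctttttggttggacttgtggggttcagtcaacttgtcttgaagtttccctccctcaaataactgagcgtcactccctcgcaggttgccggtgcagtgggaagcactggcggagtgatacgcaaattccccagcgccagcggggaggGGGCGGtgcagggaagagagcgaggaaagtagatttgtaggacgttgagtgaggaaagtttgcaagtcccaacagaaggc
Col4a6, chrX:141474027-141474326, minus strand: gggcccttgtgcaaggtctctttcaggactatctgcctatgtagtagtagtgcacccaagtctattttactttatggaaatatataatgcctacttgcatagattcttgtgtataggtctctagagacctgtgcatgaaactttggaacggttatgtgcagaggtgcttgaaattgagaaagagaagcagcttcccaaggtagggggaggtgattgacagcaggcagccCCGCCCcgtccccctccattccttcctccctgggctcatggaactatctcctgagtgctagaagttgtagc
Col6a6, chr9:105828036-105828335, minus strand: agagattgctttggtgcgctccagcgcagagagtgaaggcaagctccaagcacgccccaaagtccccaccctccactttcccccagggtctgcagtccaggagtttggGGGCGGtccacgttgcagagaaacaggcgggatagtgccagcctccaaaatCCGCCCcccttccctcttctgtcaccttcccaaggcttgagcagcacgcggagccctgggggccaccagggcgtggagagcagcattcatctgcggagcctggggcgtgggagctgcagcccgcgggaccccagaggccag
GGGCGG or its complement was present in 35.6% of all 32817 promoter windows and in 21 of the 34 windows of members (61.8%), and CCAAT or its complement in 37.4% and 32.4%. TATAAA or its complement was in 13.6% of all windows and in 4 of the member windows. The Col4a4 window held none of the motifs, and the matches are letters only, with no measurement of binding here.

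Col4a3 (chr1:82586921-82722059, plus strand) was at 14.8, 16.8 and 14.0 CPM in wild-type, 19.5, 17.9 and 16.9 in Clrn1-/-, 12.7, 14.0 and 15.7 in Clrn2-/- and 22.5, 24.7 and 25.4 CPM in the double mutants. The 3 double mutant libraries were above the other 9, with log2 fold changes of 0.67 (SE 0.09, adjusted p = 1.65e-05) against wild-type, 0.78 (SE 0.09, adjusted p = 1.32e-05) against Clrn2-/- and 0.42 (SE 0.09, adjusted p = 0.00142) against Clrn1-/-, the last under 1.5-fold. Its head-to-head partner Col4a4 was called in no comparison, with 0.38 (SE 0.08, adjusted p = 0.00169) in the double mutants against wild-type. Col4a5 (chrX:141475385-141689234, plus strand) was at 33.0, 32.4 and 32.1 CPM in wild-type, 43.6, 40.2 and 43.7 in Clrn1-/-, 38.0, 38.9 and 43.4 in Clrn2-/- and 53.4, 53.6 and 51.4 CPM in the double mutants. It was higher than wild-type in all 9 mutant libraries and highest in the double mutants, with log2 fold changes of 0.39 (SE 0.05, adjusted p = 9.03e-05), 0.30 (SE 0.05, adjusted p = 0.00153) and 0.70 (SE 0.05, adjusted p = 8.52e-08). Col4a6 (chrX:141165403-141474076, minus strand), the least abundant type IV chain, was at 5.34, 3.84 and 3.11 CPM in wild-type, 6.55, 7.12 and 5.92 in Clrn1-/-, 4.84, 4.77 and 4.78 in Clrn2-/- and 7.28, 7.25 and 6.68 CPM in the double mutants. The Clrn1-/- and double mutant libraries lay above all wild-type and Clrn2-/- libraries (0.68 with SE 0.15 and adjusted p = 0.00301 and 0.79 with SE 0.15 and adjusted p = 0.000497), and without wild-type replicate 3, the lowest, the Clrn1-/- value was 0.51 and no longer called. Col4a1 (chr8:11198423-11312826, minus strand) was at 178, 178 and 177 CPM in wild-type, 245, 229 and 208 in Clrn1-/-, 184, 181 and 169 in Clrn2-/- and 191, 208 and 204 CPM in the double mutants. All 6 libraries lacking Clrn1 were above the wild-type libraries, with 0.35 (SE 0.05, adjusted p = 0.000201) in Clrn1-/- and 0.18 (SE 0.05, adjusted p = 0.0187) in the double mutants, which were lower than Clrn1-/- by -0.18 (SE 0.05, adjusted p = 0.0221), each under 1.5-fold. Its partner Col4a2 changed by 0.24 (SE 0.06, adjusted p = 0.00491) and 0.24 (SE 0.06, adjusted p = 0.0031).

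Of the chains of the basement membrane zone, Col18a1 (chr10:77052178-77166548, minus strand), the precursor of endostatin, was at 29.8, 32.3 and 27.3 CPM in wild-type, 41.8, 40.6 and 40.2 in Clrn1-/-, 32.7, 33.1 and 34.1 in Clrn2-/- and 43.1, 46.8 and 44.2 CPM in the double mutants. Every mutant library was above every wild-type library, and the double mutants reached 0.59 (SE 0.06, adjusted p = 1.03e-06), at the 1.5-fold limit, against 0.46 (SE 0.06, adjusted p = 3.3e-05) in Clrn1-/-. The call was lost in 11 of 21 alternative settings, over which the log2 fold change ran from 0.51 to 0.64. Col15a1 (chr4:47208161-47313167, plus strand), a related chain of vessel and nerve basement membranes, was at 70.0, 60.7 and 70.2 CPM in wild-type, 82.1, 72.4 and 80.5 in Clrn1-/-, 82.7, 71.8 and 73.1 in Clrn2-/- and 76.4, 81.7 and 72.1 CPM in the double mutants, which is a shift of 0.23 (SE 0.07, adjusted p = 0.0261), 0.18 (SE 0.07, adjusted p = 0.103) and 0.20 (SE 0.07, adjusted p = 0.0391). Col7a1, the anchoring fibril collagen, changed by 0.29 (SE 0.08, adjusted p = 0.00969) in the double mutants.

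Among the type VI genes, Col6a1 and Col6a2 overlapped with wild-type in every mutant, whereas Col6a3, Col6a5 and Col6a6 had larger changes in Clrn1-/-. Col6a1 (chr10:76708792-76726168, minus strand) was at 56.3, 70.0 and 28.9 CPM in wild-type, 45.0, 46.6 and 44.0 in Clrn1-/-, 53.0, 65.0 and 64.3 in Clrn2-/- and 65.9, 48.2 and 49.4 CPM in the double mutants. Wild-type alone covered the range of the other 9 libraries, and neither Col6a1 nor Col6a2, the chains that join in every type VI molecule, was called in any comparison (log2 fold changes in Clrn1-/- of -0.19 with SE 0.21 and adjusted p = 0.547 and -0.37 with SE 0.22 and adjusted p = 0.244). Col6a3 (chr1:90765923-90843971, minus strand), which completes the common type VI molecule, was at 8.51, 9.81 and 7.06 CPM in wild-type, 17.1, 19.4 and 16.4 in Clrn1-/-, 8.77, 9.58 and 8.94 in Clrn2-/- and 13.4, 10.8 and 9.93 CPM in the double mutants. The 3 Clrn1-/- libraries were above the other 9, with 1.06 (SE 0.12, adjusted p = 1.02e-05) against wild-type, 0.96 (SE 0.12, adjusted p = 4.46e-05) against Clrn2-/- and, in the double mutants against Clrn1-/-, -0.64 (SE 0.12, adjusted p = 0.000586). The call in that last comparison was lost without Clrn1-/- replicate 2 (-0.57) or without double mutant replicate 3 (-0.56), and the double mutants exceeded wild-type by 0.43 (SE 0.12, adjusted p = 0.0121), under 1.5-fold. Per kilobase, the ratio of Col6a3 to Col6a1 was 0.0554, 0.0513 and 0.0893 in the wild-type libraries and 0.139, 0.152 and 0.137 in Clrn1-/-.

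Col6a6, Col6a5 and Col6a4 are neighbours on chromosome 9 and encode chains that can take the place of the Col6a3 product. Col6a6 (chr9:105687809-105828160, minus strand) was at 0.59, 0.411 and 0.354 CPM in wild-type, 2.37, 1.99 and 2.18 in Clrn1-/-, 0.403, 0.184 and 0.45 in Clrn2-/- and 1.7, 1.9 and 1.55 CPM in the double mutants, or 14 to 21 reads per wild-type library and 75 to 84 per Clrn1-/- library. The libraries fell into a high set, the 6 that lack Clrn1, and a low set, the 6 that have it, with no overlap. The log2 fold changes were 2.27 (SE 0.24, adjusted p = 6.69e-06) and 1.92 (SE 0.25, adjusted p = 1.79e-05) against wild-type and 2.63 (SE 0.26, adjusted p = 3.77e-06) and 2.28 (SE 0.27, adjusted p = 1.6e-05) against Clrn2-/-, the largest of any tested member in these 4 comparisons, while Clrn2-/- differed from wild-type by -0.36 (SE 0.32, adjusted p = 0.519). Col6a5 (chr9:105856078-105960643, minus strand) had only 4, 1 and 2 reads in the wild-type libraries, 13, 12 and 5 in Clrn1-/-, 3, 1 and 1 in Clrn2-/- and 10, 7 and 1 in the double mutants. Only Clrn1-/- replicates 1 and 2 and double mutant replicate 1 reached 10 reads. Col6a5 therefore entered the test through libraries that lack Clrn1, and its values are descriptive. From the pooled reads, its ratio of Clrn1-/- to wild-type was 4.40 with an exact 95% interval of 1.89 to 11.9, and that of the double mutants to wild-type was 2.79 with an interval of 1.11 to 7.90, which cover counting error only. The edgeR value in Clrn1-/- (2.09 with SE 0.72 and adjusted p = 0.043) was called but lost the call in 9 of 19 alternative settings, among them limma-voom, DESeq2, and without wild-type replicate 2 or 3 or Clrn1-/- replicate 1 or 2. The neighbour Col6a4 had 5, 8, 6 and 6 reads over the 3 libraries of wild-type, Clrn1-/-, Clrn2-/- and the double mutants, so that a difference was not detectable at this depth.

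Of the 8 FACIT members, Col16a1 and Col19a1 were called higher in Clrn1-/-, and none was called in either direction against wild-type in Clrn2-/- or the double mutants by edgeR, limma-voom or DESeq2, with 4 and 4 at an unadjusted edgeR p under 0.05. Col16a1 (chr4:130047840-130099283, plus strand), a fibril-associated chain of dermal and vessel-wall matrix, was at 41.0, 42.8 and 39.7 CPM in wild-type, 76.9, 78.0 and 71.3 in Clrn1-/-, 50.1, 51.2 and 49.5 in Clrn2-/- and 55.8, 54.6 and 57.3 CPM in the double mutants. The 4 genotypes did not overlap, in the order wild-type, Clrn2-/-, double mutants and Clrn1-/-, and the log2 fold changes against wild-type were 0.87 (SE 0.05, adjusted p = 3.24e-09) in Clrn1-/-, 0.29 (SE 0.05, adjusted p = 0.000674) in Clrn2-/- and 0.44 (SE 0.05, adjusted p = 2.02e-06) in the double mutants. Col16a1 in Clrn1-/- had the smallest adjusted p of any member against wild-type. Col19a1 (chr1:24261890-24587472, minus strand), a rare chain known from muscle and nerve, was at 5.31, 4.57 and 5.9 CPM in wild-type, 10.4, 9.39 and 8.78 in Clrn1-/-, 6.86, 5.48 and 6.41 in Clrn2-/- and 6.39, 6.69 and 6.5 CPM in the double mutants. The Clrn1-/- libraries were above the other 9, with 0.85 (SE 0.11, adjusted p = 3.83e-05) against wild-type and 0.60 (SE 0.11, adjusted p = 0.00119) against Clrn2-/-. The call against Clrn2-/- was lost on unstranded counts, without Clrn1-/- replicate 1 and without Clrn2-/- replicate 2, with values no lower than 0.52. Col9a2 (chr4:121039385-121055322, plus strand), the most abundant FACIT member per length, was at 191, 190.1 and 202 CPM in wild-type, 246, 229.7 and 274 in Clrn1-/-, 247, 217 and 226 in Clrn2-/- and 249.9, 282 and 295 CPM in the double mutants. All 9 mutant libraries were above wild-type, by less than 1.5-fold (0.36 with SE 0.07 and adjusted p = 0.00124, 0.24 with SE 0.07 and adjusted p = 0.0303 and 0.50 with SE 0.07 and adjusted p = 3.31e-05), and Col9a3, its partner in type IX collagen, changed by 0.25 (SE 0.06, adjusted p = 0.0067), 0.17 (SE 0.06, adjusted p = 0.0769) and 0.35 (SE 0.06, adjusted p = 0.000323). Col12a1, Col14a1, Col20a1 and Col22a1 were called in no comparison, with log2 fold changes against wild-type between -0.56 and 0.20. Of these, Col12a1 and Col14a1, which coat fibrils in tendon and skin, were at 27.8 to 47.0 and 88.6 to 102 CPM in wild-type, and Col22a1, known from the junction of muscle and tendon, was at 1.21 to 6.36 CPM.

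Transmembrane collagens are single-pass membrane proteins with a collagenous part outside the cell. Col13a1 (chr10:61838236-61979108, minus strand), known from neuromuscular junctions and cell adhesion sites, was at 5.09, 7.48 and 6.15 CPM in wild-type, 10.3, 10.2 and 11.1 in Clrn1-/-, 9.09, 8.05 and 10.1 in Clrn2-/- and 11.2, 10.8 and 11.1 CPM in the double mutants. It was higher in all 9 mutant libraries, with 0.76 (SE 0.12, adjusted p = 0.000182) in Clrn1-/-, 0.54 (SE 0.12, adjusted p = 0.00563) in Clrn2-/- and 0.82 (SE 0.12, adjusted p = 4.38e-05) in the double mutants. Col25a1 (chr3:130131501-130599877, plus strand), a neuronal collagen needed for motor innervation of muscle, was at 4.41, 4.52 and 3.47 CPM in wild-type, 8.95, 8.38 and 7.4 in Clrn1-/-, 5.89, 3.98 and 3.99 in Clrn2-/- and 5.34, 5.29 and 4.51 CPM in the double mutants. The 3 Clrn1-/- libraries were again above the other 9, with 1.00 (SE 0.15, adjusted p = 0.000155) against wild-type, 0.83 (SE 0.15, adjusted p = 0.00119) against Clrn2-/- and -0.71 (SE 0.15, adjusted p = 0.00168) for the double mutants against Clrn1-/-. In the same libraries 10 neuronal marker genes summed to 10589.5 to 11076 CPM in Clrn1-/- and 11841 to 12984 CPM in wild-type, with 0 called by edgeR and 7 lower at an unadjusted p under 0.05, and 10 skeletal muscle genes to 40.4 to 46.3 CPM and 12.8 to 15.3 CPM, of which the 9 genes other than Myl1 made up 3.54 to 3.77 and 3.97 to 5.37 CPM, and their part in the Col25a1 result was not tested. Col23a1 (chr11:51289920-51583918, plus strand), the most abundant of this type, was at 47.2, 56.0 and 41.3 CPM in wild-type, 49.6, 50.8 and 46.4 in Clrn1-/-, 44.0, 49.0 and 45.9 in Clrn2-/- and 49.4, 49.2 and 49.8 CPM in the double mutants. The wild-type libraries spanned those of all 3 mutants, and the change was 0.04 (SE 0.08, adjusted p = 0.741) in the double mutants.

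Col28a1 (chr6:7997808-8192617, minus strand), a beaded-filament-related collagen of peripheral nerve, was at 11.0, 9.29 and 13.2 CPM in wild-type, 15.7, 12.6 and 13.4 in Clrn1-/-, 14.7, 12.1 and 13.6 in Clrn2-/- and 17.3, 19.97 and 20.3 CPM in the double mutants. The double mutant libraries were above the other 9 (0.78 with SE 0.12 and adjusted p = 6.59e-05 against wild-type), while the single mutants overlapped with wild-type (0.31 with SE 0.12 and adjusted p = 0.0647 and 0.27 with SE 0.12 and adjusted p = 0.15). The 10 Schwann cell and myelin genes, of which 0 were called in this comparison, summed to 21505 to 22689.6 CPM in wild-type and 20609.5 to 22049.7 CPM in the double mutants, and their part in the Col28a1 result was not tested. Col26a1 changed by 0.19 (SE 0.11, adjusted p = 0.181) in the double mutants. Col8a1 (chr16:57624258-57754737, minus strand), a network-forming chain of vessel walls and Descemet's membrane, was at 85.9, 85.2 and 45.5 CPM in wild-type, 66.8, 51.6 and 54.3 in Clrn1-/-, 63.6, 96.7 and 85.5 in Clrn2-/- and 84.0, 66.4 and 68.2 CPM in the double mutants, with all 4 genotypes overlapping. Its partner Col8a2 rose in Clrn2-/- by 0.45 (SE 0.12, adjusted p = 0.0228), under 1.5-fold.

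Of the 38 tested members, 9 varied widely among the wild-type libraries themselves. Col1a1, Col4a6, Col6a1, Col6a2, Col6a5, Col6a6, Col8a1, Col12a1 and Col22a1 had a coefficient of variation above 20% in wild-type, where the median over tested members was 9.17%, and in Clrn1-/-, Clrn2-/- and the double mutants 2, 6 and 3 members were above 20%. Col1a1, the other chain of type I collagen, was at 197, 254 and 114 CPM in wild-type, 138, 127 and 138 in Clrn1-/-, 144, 175 and 167 in Clrn2-/- and 211, 147 and 137 CPM in the double mutants. Its wild-type libraries spanned a larger range than Col1a2, whose 3 values lay within 798 to 881 CPM, although the products of both genes join in the type I molecule. The ratio of Col1a1 to Col1a2 per kilobase was 0.429, 0.546 and 0.271 in wild-type and 0.244, 0.250 and 0.264 in Clrn1-/-. Wild-type replicate 3 had the lowest value of the 3 for 27 of the 38 tested members. The shares of all genes tested that were lowest in this library, or varied by more than 20%, were not computed. Neither count is therefore read as particular to collagens. Bglap, the osteocalcin gene of osteoblasts, was at 5.7, 12.1 and 3.77 CPM in the same wild-type libraries and Ibsp, bone sialoprotein, at 22.6, 37.9 and 13.1 CPM, both lowest in replicate 3 and highest in replicate 2. The whole list of 10 bone genes summed to 1972, 2073 and 2186 CPM, of which Spp1 made up most. Without Spp1 the other 9 summed to between 101 and 191 CPM in the wild-type libraries. The part of bone tissue in the spread of these collagens was not tested.

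Leaving out wild-type replicate 3 moved counts that rest on these genes. The members called lower in Clrn1-/- then numbered 4 (Col1a1, Col6a2, Col22a1 and Col24a1) in place of 0, and those called higher 8 in place of 10, with Col4a6 and Col6a5 lost. In the double mutants 7 members were called higher without it, with Col2a1, Col5a1 and Col18a1 lost, and 2 lower (Col22a1 and Col24a1). In Clrn2-/- 2 members were then lower in place of 1, with Col22a1 added, and the interaction was above the sum for 2 in place of 1, with Col1a1 added. No direction is therefore given here for Col1a1, Col6a1, Col6a2 or Col22a1.

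**Figure D4:**
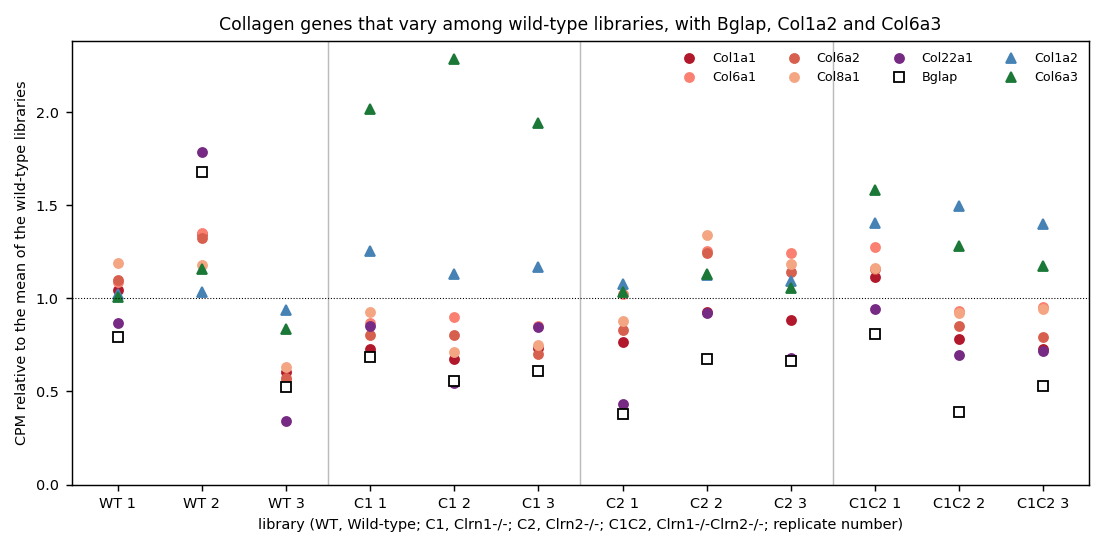
CPM of collagen genes with a wide spread in wild-type (circles), of Bglap (open squares) and of Col1a2 and Col6a3 (triangles) in each of the 12 libraries, divided by the gene's mean in the wild-type libraries. Col1a1, Col6a1, Col6a2, Col8a1, Col22a1 and Bglap are all low in wild-type replicate 3, whereas Col1a2 is near 1 in every wild-type library and Col6a3 is near 2 in every Clrn1-/- library.

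To see whether the changes with Clrn1 loss depend on the wild-type libraries, the double mutants were compared with Clrn2-/-, a comparison that shares no library with Clrn1-/- against wild-type. In it, 2 members were called higher, Col4a3 and Col6a6 (3.67% of all genes), and none lower by edgeR, limma-voom or DESeq2, with 0 at an unadjusted edgeR p under 0.05 (1.43% of all genes). Without the fold minimum 17 members were higher (14.4% of all genes) and 0 lower (13.2%) and the median log2 fold change was 0.21. The 10 members called higher in Clrn1-/- were all higher on average in the double mutants than in Clrn2-/-, 7 of them with no overlap of libraries and 5 past the limit on the adjusted p. Col6a5 is among these 10 and among the 22 below. It passed the filter on low counts only through libraries that lack Clrn1, so its sign is no support. Among all 670 genes called higher in Clrn1-/-, 75.4% had the same sign there, 47.3% had no overlap and 36.3% passed the limit on the adjusted p. Of the 22 members past the limit on the adjusted p with a higher level in Clrn1-/-, all 22 had the same sign and 15 passed it (68.2%), against 69.4% and 36.4% of the 2593 genes of that kind. The members that did not pass it in the double mutants against Clrn2-/- included Col19a1 (0.06 with SE 0.11 and adjusted p = 0.74), Col25a1 (0.12 with SE 0.16 and adjusted p = 0.621) and Col6a3 (0.32 with SE 0.12 and adjusted p = 0.0638).

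Loss of Clrn2 was compared in the same manner, on the wild-type and on the Clrn1-/- background. In the double mutants against Clrn1-/-, no member was called higher by edgeR, limma-voom or DESeq2, with 6 at an unadjusted edgeR p under 0.05 (4.62% of all genes called), and 2 were called lower, Col6a3 and Col25a1 (2.61% of all genes). Without the fold minimum 5 members were higher and 5 lower, against 15.7 and 14.6% of all genes. Of the 7 members past the limit on the adjusted p with a higher level in Clrn2-/- than in wild-type, 6 had the same sign in this second comparison and 1 (14.3%), Col4a5, passed again (0.31 with SE 0.05 and adjusted p = 0.000326), against 69.1% and 41% of the 1360 genes of that kind. For Col24a1, the value of -0.77 in Clrn2-/- against wild-type stood beside 0.02 (SE 0.10, adjusted p = 0.915) in the double mutants against Clrn1-/-. Between the single mutants, Clrn1-/- exceeded Clrn2-/- in 5 called members, namely Col6a3, Col6a5, Col6a6, Col19a1 and Col25a1 (2.4% of all genes), and none was called lower by edgeR, limma-voom or DESeq2, with 3 at an unadjusted edgeR p under 0.05 (2.34% of all genes). Of the 5, Col6a5 again entered the test only through libraries that lack Clrn1. Without the fold minimum 15 members were higher in Clrn1-/- and 0 lower, against 9.51 and 8.99% of all genes.

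The interaction term tests whether the double mutants differ from the sum, on the log2 scale, of the changes in the single mutants. It was called for 5 of the 38 members, 1 above the sum (Col24a1, 0.79 with SE 0.13 and adjusted p = 0.000828) and 4 below it, against 3.58% and 1.92% of all genes. The 4 below were Col16a1 with -0.72 (SE 0.07, adjusted p = 4.46e-06), Col6a3 with -0.74 (SE 0.17, adjusted p = 0.00704), Col19a1 with -0.79 (SE 0.16, adjusted p = 0.00263) and Col25a1 with -0.88 (SE 0.22, adjusted p = 0.0108). In the levels given above, each of these 4 was highest in Clrn1-/-, and the mean of the double mutants lay between those of Clrn1-/- and wild-type. For Col6a6 the term was 0.01 (SE 0.32, adjusted p = 0.988), and Col4a3, at 0.52 (SE 0.12, adjusted p = 0.00879), was above the sum but under 1.5-fold. Without the fold minimum 2 members were above the sum and 5 below it, against 9.32 and 8.06% of all genes.

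Genes that modify, cut, crosslink and bind collagen are read against the shares of all genes called higher, 3.52% in Clrn1-/-, 1.24% in Clrn2-/- and 5.88% in the double mutants, and called lower, 3.7, 1.42 and 4.02%. Of 14 tested genes for procollagen processing and crosslinking, 6 were called higher there (Loxl4, Lox, Pcolce, Pcolce2, Adamts2 and Sparc) and 1 lower (Adamts3), against 1 higher and 1 lower in Clrn1-/- and 1 higher in Clrn2-/-. Loxl4, a lysyl oxidase that crosslinks collagen and elastin, was at 1.29, 1.4 and 0.784 CPM in wild-type, 3.92, 3.78 and 3.04 in Clrn1-/-, 3.52, 2.79 and 3.79 in Clrn2-/- and 13.6, 18.6 and 17.1 CPM in the double mutants, with log2 fold changes of 1.63 (SE 0.21, adjusted p = 3.13e-05), 1.55 (SE 0.21, adjusted p = 0.000143) and 3.84 (SE 0.18, adjusted p = 6.28e-10). The related enzyme Lox was at 84.3, 84.9 and 83.9 CPM in wild-type, 109, 99.8 and 105 in Clrn1-/-, 81.0, 91.5 and 108 in Clrn2-/- and 209, 203 and 222 CPM in the double mutants. The double mutants stood apart, with 1.32 (SE 0.08, adjusted p = 3.2e-09) against wild-type and an interaction of 0.86 (SE 0.11, adjusted p = 6.22e-05). Pcolce, the enhancer of the C-propeptidase, rose by 0.88 (SE 0.07, adjusted p = 8.32e-08) in the double mutants and Adamts2, an N-propeptidase, by 0.66 (SE 0.06, adjusted p = 2.06e-07). Adamts3, another N-propeptidase, fell in Clrn1-/- (-0.67 with SE 0.10 and adjusted p = 0.000191) and in the double mutants (-0.66 with SE 0.10 and adjusted p = 0.0001), while its change in Clrn2-/- was -0.45 (SE 0.10, adjusted p = 0.00726).

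Of 23 genes for collagen modification and folding in the endoplasmic reticulum, 1 was called, Plod2, a lysyl hydroxylase of collagen telopeptides, with 0.79 (SE 0.05, adjusted p = 7.67e-09) in the double mutants. In the single mutants edgeR, limma-voom and DESeq2 called none, with an unadjusted edgeR p under 0.05 in 9 higher and 1 lower in Clrn1-/- and in 7 higher and 2 lower in Clrn2-/-. Without the fold minimum 13 of the 23 were higher and 1 lower in the double mutants (19.1 and 17.9% of all genes), 5 and 1 in Clrn1-/- (13.6 and 13.3%) and 5 and 0 in Clrn2-/- (7.14 and 7.07%), and the medians were 0.34, 0.11 and 0.08 in that order. Among 17 proteoglycans and fibril partners, 3 were called higher in the double mutants (Lum, Postn and Epyc), and in Clrn1-/- 2 were called higher (Lum and Postn) and 2 lower (Comp and Fn1). Lum, encoding the fibril-spacing proteoglycan lumican, was at 86.9, 74.3 and 83.04 CPM in wild-type, 152, 122 and 142 in Clrn1-/-, 86.8, 90.5 and 102 in Clrn2-/- and 195, 227 and 189 CPM in the double mutants, a change of 1.32 (SE 0.09, adjusted p = 1.64e-08) in the last. Postn, encoding periostin, rose by 1.02 (SE 0.08, adjusted p = 3.44e-07) in Clrn1-/- and 1.15 (SE 0.08, adjusted p = 3.69e-08) in the double mutants, and Epyc, a supporting-cell and cartilage proteoglycan, by 1.02 (SE 0.10, adjusted p = 1.06e-06) in the double mutants. Comp, a cartilage matrix protein that binds collagens, fell in Clrn1-/- (-1.87 with SE 0.23 and adjusted p = 3.06e-05), with an interaction of 1.75 (SE 0.32, adjusted p = 0.00138), and it was at 1.94, 2.16 and 1.64 CPM in wild-type and 0.38, 0.517 and 0.649 CPM in Clrn1-/-. Fn1, fibronectin, was called lower in Clrn1-/- with -0.62 (SE 0.17, adjusted p = 0.013), but its wild-type libraries, at 296, 344 and 182 CPM, overlapped with the 174, 188 and 172 CPM of Clrn1-/-, and the call was lost in 5 of 21 alternative settings, namely limma-voom, library size alone, a robust variance prior, and without wild-type replicate 1 or replicate 2.

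Of 11 collagen receptors, Ddr1, a receptor tyrosine kinase for collagen, and Itga2, an integrin chain, were called higher in the double mutants (0.76 with SE 0.05 and adjusted p = 1.02e-08 and 0.95 with SE 0.19 and adjusted p = 0.001), and Itga11, the integrin chain of fibroblasts, was called lower in Clrn1-/- (-0.63 with SE 0.20 and adjusted p = 0.027), a call lost in 7 of 21 alternative settings, namely limma-voom, only the groups compared, and without wild-type replicate 1 or 2 or any 1 of the Clrn1-/- libraries. Of 20 other basement membrane genes, 13 passed the limit on the adjusted p with a higher level in Clrn1-/- (13.6% of all genes), 2 in Clrn2-/- (7.14%) and 15 in the double mutants (19.1%), and 0, 1 and 1 passed it with a lower level (13.3, 7.07 and 17.9%). The Clrn2-/- count is near the share of all genes. Among them, Lamc3, a laminin chain, was called in Clrn1-/- (0.78 with SE 0.10 and adjusted p = 3.42e-05) and in the double mutants (0.70 with SE 0.10 and adjusted p = 4.44e-05), and Frem2, a protein of epithelial basement membranes, in the double mutants (0.60 with SE 0.11 and adjusted p = 0.000526), a call lost without wild-type replicate 3 or double-mutant replicate 1 or 2. The medians of these 20 genes were 0.35 in Clrn1-/-, 0.03 in Clrn2-/- and 0.33 in the double mutants, beside 0.30, 0.01 and 0.52 for the type IV chains. The tectorial membrane collagens set apart by the rule also rose in the double mutants, Col9a1 by 0.91 (SE 0.10, adjusted p = 3.22e-06) and Col11a1 by 0.66 (SE 0.08, adjusted p = 6.53e-06), and Col11a2 changed by 0.46 (SE 0.08, adjusted p = 0.000347). In the single mutants, Col9a1 was at 133 to 181 CPM in Clrn1-/- and 117 to 142 in Clrn2-/-, against 97.0 to 105 in wild-type. Col11a1 was at 152 to 197, 130 to 151 and 136 to 143 CPM in that order, and Col11a2 at 954 to 1083, 897 to 1079 and 881 to 1021 CPM.

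**Figure D5:**
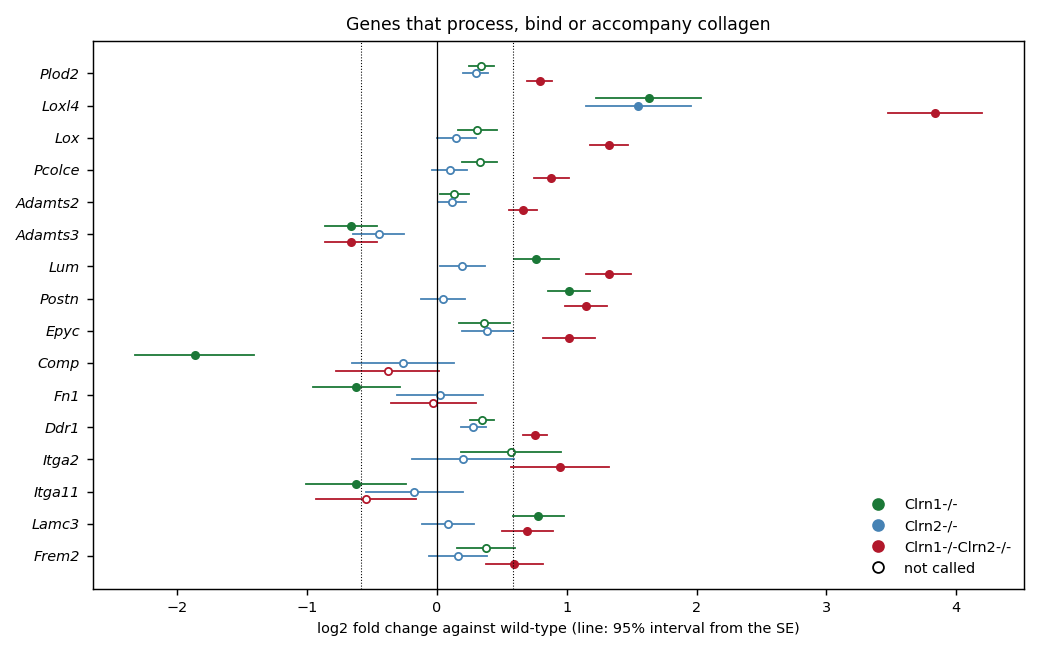
Log2 fold change against wild-type of the genes named from the lists of collagen processing, binding, receptors and basement membrane, in Clrn1-/- (green), Clrn2-/- (blue) and Clrn1-/-Clrn2-/- (red), with 3 libraries per genotype. Filled circles are called, lines are 95% intervals from the SE and dotted lines mark 1.5-fold. Loxl4 is right of 1.5-fold in all mutants and Lox in the double mutants, and Comp is far left in Clrn1-/-.

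Markers of other cell types were read beside these results. Of 10 fibroblast genes, 1 was called higher (Lum) and 1 lower (Otos, an abundant gene of cochlear fibrocytes) in Clrn1-/- and in the double mutants alike, and Otos alone was called, lower, in Clrn2-/-. Their summed level was 2271 to 2906 CPM in wild-type, 1526 to 1741 in Clrn1-/-, 1569.9 to 1696 in Clrn2-/- and 1932 to 2166 CPM in the double mutants, and it followed Otos. Without Otos the other 9 genes summed to 702 to 827 CPM in wild-type, 877 to 991 in Clrn1-/-, 721 to 889 in Clrn2-/- and 985 to 1055 CPM in the double mutants. Pdgfra, a membrane marker of fibroblasts, changed by 0.26 (SE 0.08, adjusted p = 0.0267) in Clrn1-/- and 0.26 (SE 0.08, adjusted p = 0.0181) in the double mutants. Of 10 macrophage genes, 3 were called higher in Clrn1-/-, 1 in Clrn2-/- and 6 in the double mutants, with sums of 150.4 to 195 CPM in wild-type, 242 to 261 in Clrn1-/-, 176 to 223 in Clrn2-/- and 244 to 286 CPM in the double mutants. Of 10 skeletal muscle genes, 1 was called higher (Myl1) and 1 lower (Mb) in Clrn1-/- and 2 lower in the double mutants (Myl1 and Mylpf), and their sums were 12.8 to 15.3 CPM in wild-type, 40.4 to 46.3 in Clrn1-/-, 10.4 to 12.7 in Clrn2-/- and 5.74 to 7.54 CPM in the double mutants. These sums followed Myl1, and without it the other 9 genes summed to 3.97 to 5.37 CPM in wild-type, 3.54 to 3.77 in Clrn1-/-, 4.22 to 5.17 in Clrn2-/- and 3.09 to 4.46 CPM in the double mutants. Of 9 tested cartilage genes, 2 were called lower in Clrn1-/- (Ucma and Comp), 2 lower in Clrn2-/- (Ucma and Snorc) and, in the double mutants, 1 higher (Cnmd) and 2 lower (Ucma and Hapln1), and of 10 bone genes 1 was called higher in Clrn1-/- (Dmp1) and 1 in the double mutants (Ibsp). Of 10 neuronal genes, 4 were called lower and 1 higher in the double mutants, with sums of 11841 to 12984 CPM in wild-type and 8115 to 8272 CPM in the double mutants. Of 10 genes of smooth muscle and pericytes, 1 was called lower in Clrn1-/- and 2 in Clrn2-/-, and all 5 red blood cell genes were called lower in both single mutants and 2 in the double mutants. No gene of the lists for endothelium and dividing cells was called against wild-type by edgeR, limma-voom or DESeq2, with 3 and 0 lower in Clrn1-/- at an unadjusted p under 0.05. Of 10 stria vascularis genes, 3 were called higher and 3 lower in the double mutants and 0 in the single mutants. Of 10 hair cell genes, 1 was called higher (Tmc1) and 2 lower (Chrna10 and Slc17a8) in Clrn1-/-, 4 higher in Clrn2-/- (Strc, Ocm, Loxhd1 and Tmc1) and 3 higher in the double mutants (Strc, Ocm and Tmc1), and their sums were 824 to 968 CPM in wild-type, 754 to 869 in Clrn1-/-, 884 to 991 in Clrn2-/- and 796 to 847 CPM in the double mutants. Without Pvalb, the most abundant of them, the other 9 summed to 294 to 355 CPM in wild-type, 308 to 369 in Clrn1-/-, 357 to 481 in Clrn2-/- and 418 to 447 CPM in the double mutants. Of 10 supporting cell genes, 1 was called higher in Clrn1-/- (Tectb), 2 in Clrn2-/- (Tectb and Otog) and 5 in the double mutants, where 1 was called lower, and they summed to 1283 to 1331 CPM in wild-type, 1230.5 to 1292 in Clrn1-/-, 1238 to 1429.6 in Clrn2-/- and 1646 to 1699.7 CPM in the double mutants. Without Gjb2, the most abundant, the other 9 summed to 862 to 892 CPM in wild-type, 906 to 944 in Clrn1-/-, 896 to 1025 in Clrn2-/- and 1117 to 1144 CPM in the double mutants. Apart from Matn3, a cartilage gene at 0 in 5 libraries, every marker gene had reads in all 12 libraries. Dcn, Lum, Dpt, Comp and Chad stand in both a marker list and a list of collagen partners, and the part of these cell types in the collagen results was not tested.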

How the data were processed

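Gene counts from 12 libraries of the mouse organ of Corti were used, 3 for each of 4 genotypes. Per the labels and the methods of the study, poly-A RNA gave directional libraries, and the authors aligned reads with STAR to GRCm38.p6 and deposited raw counts per Gencode gene with unstranded and per-strand columns. The reverse-strand counts were used, since they held 95.23 to 95.55% of the reads assigned by strand. Rows for unmapped, multiply mapped, unassigned and ambiguous reads stayed out of library sizes, and together these rows held 13.54 to 15.76% of the counts. Genes that share reads with a near copy or overlap on the same strand are uncertain to that extent.

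Counts were filtered with filterByExpr at a minimum count of 10, scaled by TMM and fitted by edgeR 4.0.16 quasi-likelihood with genotype as the only term over all 12 libraries, and p-values were adjusted by Benjamini and Hochberg over 19052 genes. Tests are two-sided. Interactions, the double mutant minus both single mutants plus wild-type on the log2 scale, came from the same fit. The common biological coefficient of variation was 6.15%. The fit was tested on simulated counts before use. Alternatives were limma 3.58.1 (voom, the test of the study), DESeq2 1.42.0, library size alone, other filters, unstranded counts, only the groups compared, a replicate block, no fold minimum, each library left out and, added after seeing the data, a robust variance prior. Coordinates, lengths and promoter windows are those of GRCm38.p6 annotations matched by symbol, and intervals on pooled reads are exact at 95% and cover counting error only.

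The members, gene lists and tests were chosen with earlier results of these data known. Every member is accounted for, and values per library are given for members called in any comparison and for the highest member per length of each type. Up to 4 called genes per partner list and direction with the smallest adjusted p are named, and Pcolce2, Sparc and single marker genes were named, and marker sums without their most abundant gene taken, after their values were seen. Deviations of same-numbered libraries of wild-type and Clrn1-/- had correlations of 0.269, 0.126 and 0.105 over 12453 genes. The other pairs of groups ranged from -0.277 to 0.301 with mixed signs. Libraries with different numbers were not compared, so whether the numbers pair any groups cannot be told. No 2 libraries of a genotype agreed within sampling noise.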

Additional observations from a re-analysis of the deposited data

Results flagged for a closer look

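Of the collagen genes and their named partners, 7 were called by the interaction test, past both the limit on the adjusted p and 1.5-fold. The test called 3.58% of all genes above the sum of the single mutant changes and 1.92% below it. Col4a3, Pcolce (0.46), Adamts2 (0.41) and Adamts3 (0.45) also passed the limit on the adjusted p, above the sum but under 1.5-fold on the log2 scale. Without the fold minimum 2 members were above the sum and 5 below it. The values below are those of the 7 called genes. The interaction on the log2 scale was -0.88 for Col25a1, -0.79 for Col19a1, -0.74 for Col6a3 and -0.72 for Col16a1, each highest in Clrn1-/-. It was 0.79 for Col24a1, which was lower than wild-type in every mutant by a similar amount. Among the partners it was 1.75 for Comp, which was low in Clrn1-/-, and 0.86 for Lox, which was high in the double mutants. These values rest on the wild-type libraries, which came from separate breedings, as well as on the mutants.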

How the results depend on the processing

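Without the low-count filter (33895 genes) edgeR set an infinite number of prior degrees of freedom, against 7.48, so that no gene's own spread entered its p-values, and that setting is left out of the counts of lost calls. A robust variance prior, chosen after seeing the data, changed no call on a member and lost the calls on Fn1 in 3 comparisons. Of 35 calls on members, 27 held in every other alternative run for them, 8 were lost in at least 1 and 0 changed sign. Of 41 calls on partner genes, 32 held, 9 were lost and 0 changed sign. Without a fold minimum the members higher and lower numbered 22 and 1 in Clrn1-/- against wild-type, 7 and 1 in Clrn2-/-, 23 and 1 in the double mutants, 15 and 0 in Clrn1-/- against Clrn2-/-, 5 and 5 in the double mutants against Clrn1-/-, 17 and 0 against Clrn2-/-, and 2 and 5 for the interaction. With each library left out in turn, the members called higher in Clrn1-/- against wild-type ranged from 8 to 11 and those lower from 0 to 4. In Clrn2-/- they ranged from 0 to 1 and from 1 to 2, and in the double mutants from 7 to 11 and from 0 to 2. In Clrn1-/- against Clrn2-/- they ranged from 3 to 6 and from 0 to 1, in the double mutants against Clrn1-/- from 0 to 0 and from 1 to 3, against Clrn2-/- from 2 to 3 and from 0 to 0, and for the interaction from 1 to 2 and from 4 to 5. Beyond wild-type replicate 3, other single libraries also moved counts, and the following are examples beside the lost calls given with the genes above. Col24a1 was called lower in Clrn1-/- without Clrn1-/- replicate 2, Col13a1 higher in Clrn2-/- without wild-type replicate 2 or Clrn2-/- replicate 2, and Col8a1 lower in Clrn1-/- than in Clrn2-/- without Clrn2-/- replicate 1. Col19a1 and Col6a5 lost their call against Clrn2-/- without Clrn1-/- replicate 1, and the interaction of Col4a3 was called without Clrn2-/- replicate 3. Apart from the threshold and fewer samples, the cause was not tested.

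With the replicate number as a block, the fit called 10 members higher and 0 lower in Clrn1-/- against wild-type, 0 and 1 in Clrn2-/- and 10 and 0 in the double mutants. The block gave 5 and 0 in Clrn1-/- against Clrn2-/-, 0 and 2 in the double mutants against Clrn1-/-, 3 and 0 against Clrn2-/-, with Col6a5 added, and 1 and 4 for the interaction. Depth limits Col6a4, Col6a5, Col10a1 and Col17a1. Of 64 summed levels, 55 moved by less than 1 SD on library size alone or unstranded counts.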
